A study of Caenorhabditis elegans with 3 samples.

Results

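The nematode-specific peptide genes of Caenorhabditis elegans, a nematode worm, were followed in RNA of adult hermaphrodites. They were taken as all probes annotated with a single gene symbol of the form nspa, nspb, nspc, nspd or nspe and a number. This rule found 26 genes with 1 probe each, among 15092 named genes with a value on all 3 arrays. The 26 were 5 nspa, 9 nspb, 4 nspc and 8 nspd genes, and all of them had a value on every array. No probe carried a single nspe symbol (count 0), so that family was not analysed here. The RefSeq gene table for WBcel235, the worm genome assembly, lists 64 genes under these names, of which 6 are pseudogenes. It lists 12 nspa, 12 nspb, 20 nspc, 12 nspd and 8 nspe genes, so the probes sampled 4 of the 20 nspc copies but 9 of the 12 nspb copies.

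The nsp genes encode short peptides that are known from nematodes and carry no family name outside them. The letters a to e set apart groups of similar sequence, and each group holds several copies, many of them side by side on a chromosome. The nspd genes have been linked to sperm in Caenorhabditis. For the nspa, nspb and nspc groups no role is given here. Copies of a family can share signal on an array, so the value of a single member is uncertain where a close copy exists.

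Each of the 3 two-colour arrays held RNA of adult hermaphrodites, under the submitters' sample code TP09, in channel 2, and channel 1 held the common comparator, a mixed RNA of wild-type worms. The labels give neither the genotype nor the exact age of the adults, nor the make-up of the reference. The 3 preps form a single group of 3 replicates. The labels do not tell whether each prep is a culture of its own, and the tests therefore weigh differences against a spread that may be technical. The files hold a log2 ratio per probe and array, and ratios below are of adult over reference after each array was centred on its median. That direction was taken as likely from the labels and is not stated in them. With the sign turned, every lower value below would be a higher one. Values were present for 19807 to 19899 of the 20000 probes on an array, spot intensities were not used here, and the number of arrays limits the precision.

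With that direction, the marker lists for the labelled adults read as follows. Of 14 measured oocyte and eggshell markers, 12 were higher and 1 was lower, and their medians on replicates 1 to 3 were 1.63, 1.32 and 1.47. Of 15 markers of the larval epidermis and moulting, 11 were lower, with medians of -0.86, -1.07 and -1.30. Of 11 neuron markers, 9 were lower, and of 10 intestine markers 3 were higher and 4 lower. A ratio to a mixed reference holds both the RNA per cell and the number of cells of a type, and fewer cells and less RNA per cell cannot be told apart in whole-worm RNA.

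Among the peptide genes, members were lower in adults or did not pass the test, and none was higher (count 0). Of the 26 members, 12 (46.2%) were lower and 14 did not pass by limma at an adjusted p under 0.05, with Benjamini-Hochberg adjustment over all 15092 genes. Over all genes tested, 44.4% passed, 20.9% as higher and 23.5% as lower. The share of members called was thus close to that of all genes, while the calls all lay on 1 side. At an unadjusted p under 0.05 by limma, 13 of the 26 passed. On replicates 1, 2 and 3, 18, 21 and 22 of the 26 lay below 0, and 17 lay below 0 on all 3 arrays. The median of the members' mean log2 ratios was -0.29, against -0.02 over all genes.

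The 4 families differed in where their members lay. Of the 4 nspc genes, 3 were over 3-fold lower, all 5 nspa genes were 1.36-fold to 2.17-fold lower, 4 of the 8 nspd genes were 1.65-fold to 1.92-fold lower, and no nspb gene passed (0 of 9). The family medians on replicates 1, 2 and 3 were -2.10, -1.54 and -1.85 for nspc, -0.80, -0.89 and -0.51 for nspa, -0.53, -0.58 and -0.42 for nspd, and -0.15, -0.07 and -0.16 for nspb. The order nspc, nspa, nspd, nspb from lowest to highest was the same on each of the 3 arrays. The difference between neighbours in that order was smallest for nspa and nspd, where nspa minus nspd was -0.27, -0.31 and -0.09. That difference depended on the place of the probes in the table. The medians of the members' means were -0.68 for nspa and -0.54 for nspd. With each array centred by 32 consecutive runs of table rows, they were -0.66 and -0.64. Between the outermost families, nspb minus nspc was 1.95, 1.47 and 1.69. These are differences of medians of 4 to 9 genes from families chosen with earlier results known, and they were not tested.

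**Figure D1:**
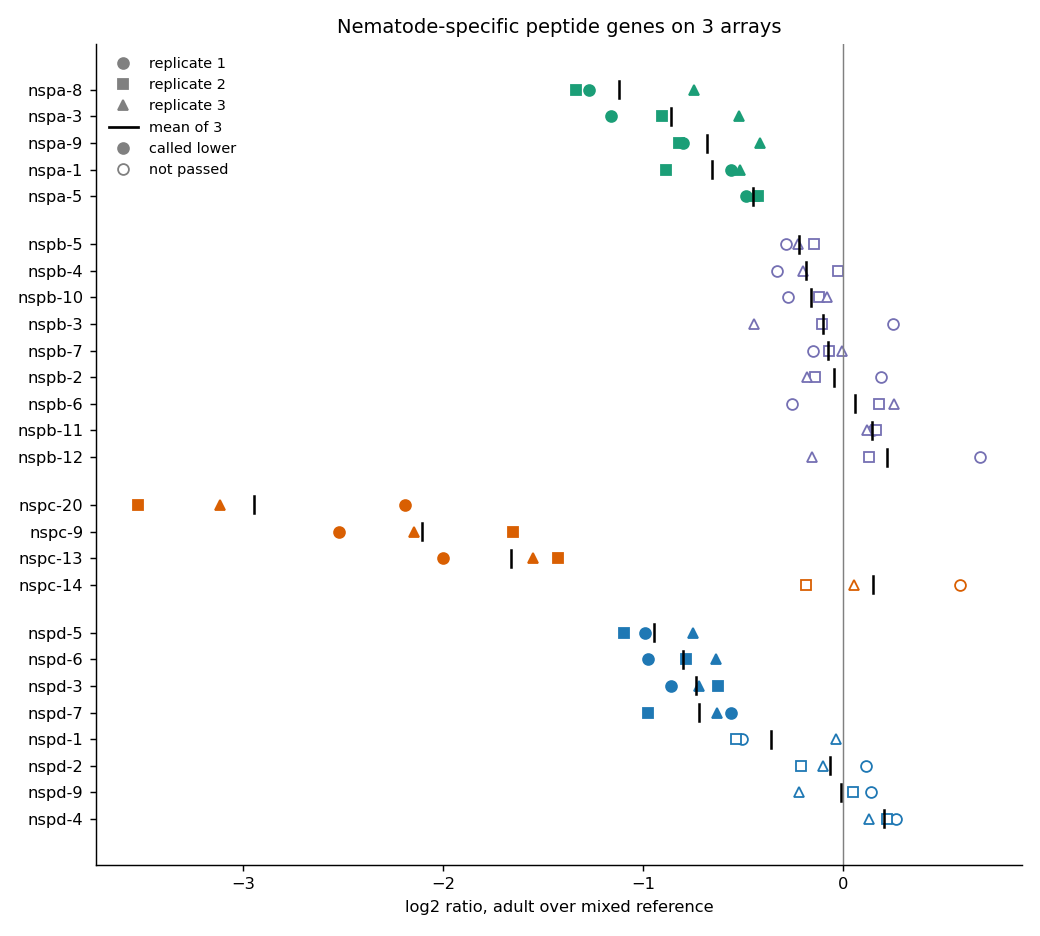
Log2 ratio of adult over mixed reference (horizontal axis) of the 26 nematode-specific peptide genes, by family, with a point for each of the 3 arrays and a black bar at their mean. Filled points mark the 12 genes called lower by limma and open points the 14 that did not pass; all nspa genes are filled, all nspb genes are open, and nspc and nspd hold both.

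The nspc family held the widest contrast. The gene nspc-20 (D1025.4) stood at -2.19, -3.53 and -3.12 on replicates 1, 2 and 3. All 3 values were low, with replicate 1 the highest. Its mean log2 ratio was -2.95 ± 0.68 (SD, n = 3), or 7.71-fold lower (adjusted p = 0.000119, limma), and 0.411% of all genes had a lower mean. The gene nspc-9 (F42F12.1) stood at -2.52, -1.65 and -2.14, with a mean of -2.11 ± 0.44, or 4.31-fold lower (adjusted p = 0.000138, limma). The gene nspc-13 (F42F12.6) stood at -2.001, -1.42 and -1.55, with a mean of -1.66 ± 0.30, or 3.16-fold lower (adjusted p = 0.000176, limma). In nspc-9 and nspc-13 replicate 1 was the lowest array, while in nspc-20 it was the highest, so the arrays of nspc-20 and nspc-9 did not keep 1 order: nspc-20 minus nspc-9 was 0.33, -1.87 and -0.98.

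The remaining member, nspc-14 (F42F12.7), did not share these values. It stood at 0.59, -0.18 and 0.06, on both sides of 0, with a mean of 0.15 ± 0.40 (adjusted p = 0.499, limma). Its 95% interval from limma's moderated error ran from -0.24 to 0.55, and that of nspc-13 from -2.01 to -1.31. In the RefSeq gene order, nspc-13 and nspc-14 are next to each other on the X chromosome, between nspc-12 and nspc-15, which have no probe under their own symbol here. Across that pair nspc-13 minus nspc-14 was -2.59, -1.24 and -1.61 on replicates 1 to 3. All 20 RefSeq nspc genes lie on the X chromosome. The 4 measured copies come from 3 separate stretches of it, and a further stretch of 7, nspc-1 to nspc-7, has no probe under these symbols.

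All nspa genes were lower, by less than the called nspc genes. The lowest, nspa-8 (W06A7.5), stood at -1.27, -1.34 and -0.74, with a mean of -1.12 ± 0.33, or 2.17-fold lower (adjusted p = 0.000984, limma). The gene nspa-3 (ZC412.7) stood at -1.16, -0.91 and -0.52, with a mean of -0.86 ± 0.32 (adjusted p = 0.00312, limma). The gene nspa-9 (C40H5.1) stood at -0.80, -0.82 and -0.41, with a mean of -0.68 ± 0.23 (adjusted p = 0.00566, limma). In each of these, replicate 3 was the array nearest to 0. The gene nspa-1 (H12D21.1) stood at -0.56, -0.89 and -0.51, with a mean of -0.65 ± 0.20 (adjusted p = 0.00584, limma). The gene nspa-5 (ZC412.6) had the smallest difference and the closest arrays, at -0.48, -0.42 and -0.44, with a mean of -0.45 ± 0.03, or 1.36-fold lower (adjusted p = 0.0183, limma). The call was lost at nearly the same mean when replicate 2 was left out (-0.46, adjusted p = 0.0741) and when replicate 3 was (-0.45, adjusted p = 0.125). It was lost at a smaller mean, -0.26, with each array centred by 32 consecutive runs of table rows (adjusted p = 0.0875). The 15 values of the family lay between -1.34 and -0.41, none of them above 0.

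Of the nspd genes, linked to sperm, 4 were lower and 4 did not pass. The lowest, nspd-5 (F11G11.8), stood at -0.99, -1.10 and -0.75, with a mean of -0.94 ± 0.18, or 1.92-fold lower (adjusted p = 0.000985, limma). The gene nspd-6 (C24D10.8) stood at -0.98, -0.79 and -0.63, with a mean of -0.80 ± 0.17 (adjusted p = 0.00202, limma). The genes nspd-3 (C24D10.7) and nspd-7 (Y43C5A.1) were also lower, with means of -0.74 ± 0.12 and -0.72 ± 0.22. These 4 genes had all their arrays below -0.55. At the other end, nspd-4 (T23B7.1) stood at 0.27, 0.22 and 0.13, above 0 on every array, with a mean of 0.21 ± 0.07 that did not pass (adjusted p = 0.208, limma). Its values depended on the place of its probe in the table. With each array centred by 32 consecutive runs of table rows, the mean of nspd-4 was 0.0015 (adjusted p = 0.993, limma). The gene nspd-9 (F26A1.10) stood at 0.14, 0.05 and -0.22, with a mean of -0.0079 ± 0.19 (adjusted p = 0.968, limma). The gene nspd-2 had a mean of -0.06 ± 0.17. Between these and the called genes lay nspd-1 (ZK484.8), given per array after its values were seen, at -0.50, -0.53 and -0.03, with a mean of -0.36 ± 0.28 (adjusted p = 0.0869, limma). It passed in 1 of 12 alternatives, with centring by 32 runs of rows, at -0.57 (adjusted p = 0.0156), while array weights gave -0.21 (adjusted p = 0.198) and leaving out replicate 2 gave -0.27 (adjusted p = 0.329).

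The nspb genes lay near 0. Their 27 values ran from -0.44 to 0.69, and their means from -0.22 to 0.22. The lowest mean was that of nspb-5 (F38A5.9), with -0.28, -0.14 and -0.22 and a mean of -0.22 ± 0.07 (adjusted p = 0.190, limma). It was followed by nspb-4 (F38A5.10), with -0.33, -0.02 and -0.20 and a mean of -0.18 ± 0.15. Both were below 0 on every array. The highest was nspb-12 (F09F7.8), with 0.69, 0.13 and -0.16 and a mean of 0.22 ± 0.43 (adjusted p = 0.349, limma), and its value rested on replicate 1: without it the mean was -0.011. The gene nspb-11 (F35C5.10) was above 0 on every array, with 0.15, 0.17 and 0.12 and a mean of 0.15 ± 0.02 (adjusted p = 0.360, limma). No nspb gene passed at an unadjusted p under 0.05 either (0 of 9). The 95% intervals of the 9 genes all held 0, and their outermost bounds were -0.50 for nspb-5 and 0.64 for nspb-12.

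**Figure D2:**
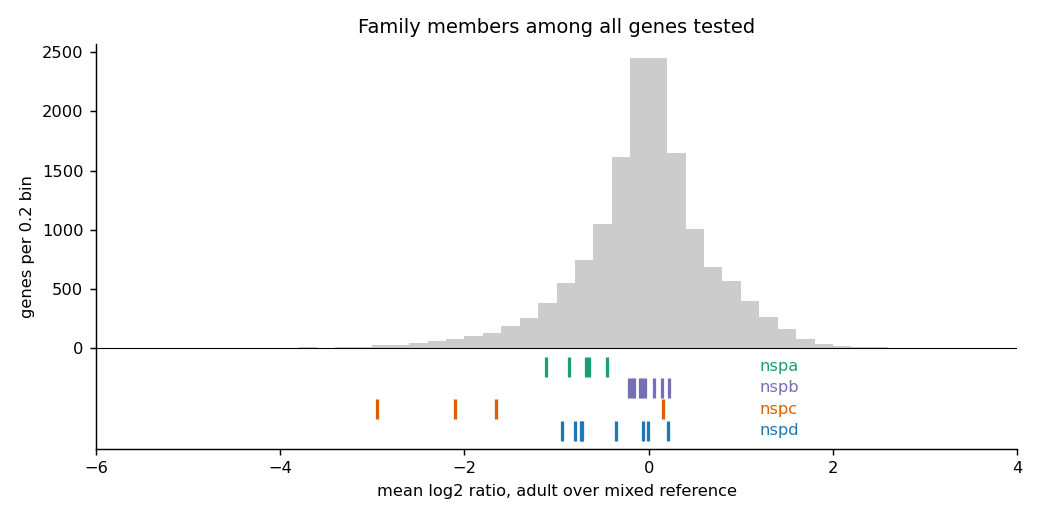
Number of genes per bin of 0.2 (vertical axis) by mean log2 ratio of adult over mixed reference (horizontal axis) for the 15092 genes tested, in grey, with a coloured tick for each of the 26 family members below. The nspb ticks lie under the peak between -0.22 and 0.22, the nspa ticks between -1.12 and -0.45, and 3 of the 4 nspc ticks at -1.66 or lower.

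Tested against a 1.5-fold change, 4 of the 26 members were lower by limma's treat, where 7.71% of all genes were lower and 6.04% higher. They were nspc-20 (adjusted p = 0.000463), nspc-9 (adjusted p = 0.000841), nspc-13 (adjusted p = 0.00178) and nspa-8 (adjusted p = 0.0392). The nspd gene nearest to that threshold was nspd-5 (adjusted p = 0.0849), so the lower values of the nspd genes and of 4 nspa genes were not shown to exceed 1.5-fold.

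Other families of small sperm proteins gave a mixed picture beside nspd. The major sperm protein builds the filaments by which worm sperm crawl. Of its 30 measured genes, 26 (86.7%) were lower, with medians of -0.84, -1.18 and -0.43 on replicates 1 to 3. The lowest was msp-51 at -1.28 ± 0.43 (adjusted p = 0.000994, limma) and the highest msp-38 at 0.066 ± 0.05 (adjusted p = 0.696, limma). A list of other small sperm protein genes was drawn by the family names ssp, ssq, sss and nspf. Of its 17 measured genes, 14 did not pass, 2 were lower and 1 was higher, and the medians were -0.15, -0.17 and 0.0042. They ran from sss-2 at -1.30 ± 0.51 to ssp-37 at 0.52 ± 0.22. Of 17 measured markers of sperm formation and function, mostly spe genes, 3 were lower, 2 higher and 12 did not pass, with medians of -0.07, -0.10 and 0.16. The part of sperm content in the nspd values was not tested.

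Small peptide genes of another kind were lower in part as well. The fungus-induced and caenacin peptide families, taken by the names fip, fipr and cnc, include antimicrobial peptides of the epidermis. Of their 19 measured genes, 9 were lower and 1 higher, with medians of -0.27, -0.45 and -0.41. They ran from cnc-1 at -2.17 ± 0.64 (adjusted p = 0.000298, limma) to fipr-15 at 0.39 ± 0.07 (adjusted p = 0.034, limma). Of 12 measured genes of the nspg and nsph families, a list added after its values were seen, 1 was lower and 11 did not pass, with medians of -0.11, -0.0028 and -0.0069.

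**Figure D3:**
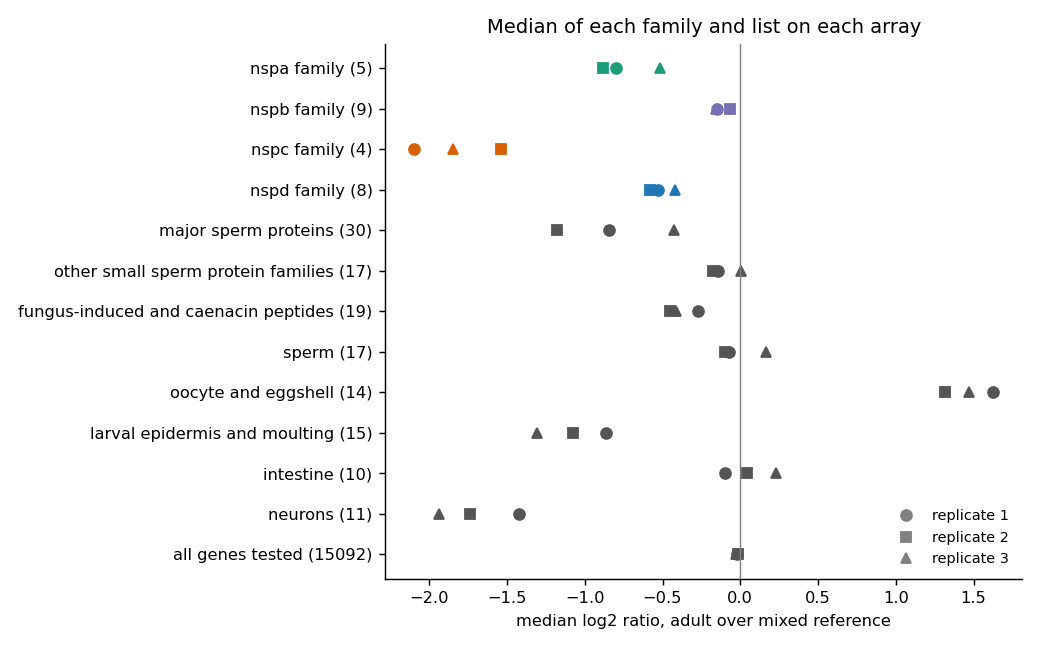
Median log2 ratio of adult over mixed reference (horizontal axis) on each of the 3 arrays, with the number of measured genes in brackets. Shown are the 4 nsp families, the comparison lists other than nspg and nsph, the marker lists and all genes. The nspc medians lie between -2.10 and -1.54, the nspb medians between -0.16 and -0.07, and the medians of all genes at -0.03 to -0.02.

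Gene order gave a further view of the families, since many copies lie side by side. RefSeq protein-coding genes of WBcel235 were put in order along each chromosome, and the tested genes up to 3 places to either side of a member were read from the same fit. Genes named from here on as neighbours were chosen after their values were seen. Around the nspa members, 8 of 18 tested neighbours were lower (44.4%) and 1 was higher. Around nspb members 9 of 31 were lower, around nspc members 2 of 10 and around nspd members 7 of 32 (21.9%), beside 23.5% of all genes. These shares were not tested.

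The nspa neighbours that were lower lay mostly in a single stretch. On chromosome V, 7 RefSeq nspa copies lie close together, of which nspa-5, nspa-3 and nspa-1 were measured, and all 3 were lower. This stretch was read from 3 places before its first RefSeq copy to 3 places after its last, whether those copies were measured or not. Of the 9 other tested genes in that wider window, 7 were lower, 2 did not pass and 0 were higher. Their means ran from -1.48 ± 0.24 for ZC412.3 to 0.017 ± 0.18 for H12D21.3. The sulfurtransferase genes mpst-2 and mpst-3, both more than 3 places from a measured member, stood at -1.23 ± 0.34 and -0.72 ± 0.15. In the same stretch, ZC412.8, between nspa-5 and nspa-3, stood at -0.42 ± 0.25, and H12D21.2, next to nspa-1, at -0.76 ± 0.19. Lower values there were thus not limited to the nspa genes. The gene nspa-9, which lies alone on the X chromosome, was also lower, while its next neighbours D1053.3 and C40H5.2 stood at -0.39 ± 0.01, which passed, and -0.0104 ± 0.008, which did not. The lowest nspa gene, nspa-8, overlaps the RefSeq span of W06A7.4, whose own probe stood at 0.10 ± 0.08 (adjusted p = 0.526, limma). On the other side of nspa-8, the next gene ret-1 was lower at -0.98 ± 0.43. Further off, rin-1 was higher at 0.85 ± 0.21, and the other tested neighbours of nspa-8 did not pass. Which strand each probe reads is not stated in the labels or files.

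The nspd copies were compared in the same way with each other and with the genes around them. On chromosome IV, nspd-3 and nspd-6 are separated by C24D10.2, and their ratios were close: nspd-3 minus nspd-6 was 0.12, 0.16 and -0.086. C24D10.2 itself stood at 0.046 ± 0.35, and of the 6 tested genes in and beside this stretch 3 were higher and 0 lower. On chromosome II, nspd-4 and nspd-5 are separated by 3 coding genes, and nspd-5 minus nspd-4 was -1.26, -1.32 and -0.88. Near nspd-2 lies a major sperm protein gene, msp-56, which stood at -1.02 ± 0.55, against -0.06 ± 0.17 for nspd-2. Also near nspd-2, kin-24 was higher at 0.39 ± 0.14, and its other tested neighbours did not pass. Next to nspd-1 lies spch-3, a gene of sperm chromatin, at -0.75 ± 0.21. Close to nspd-1 too, oaz-1 was lower at -0.82 ± 0.03. A gene of the small sperm protein list near nspd-1, ssp-16, stood at -0.29 ± 0.42 and did not pass (adjusted p = 0.220, limma). The other tested neighbours of nspd-1 did not pass either. The gene nspd-7 lies among genes of which 4 of 5 tested were lower, with Y43C5A.3 at -3.64 ± 0.57.

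The nspb copies that lie close together on chromosome IV had similar mean ratios, none of which passed the test. From nspb-1 to nspb-5, the measured copies nspb-2, nspb-3, nspb-4 and nspb-5 had means of -0.04, -0.10, -0.18 and -0.22. Between adjacent measured copies, nspb-4 minus nspb-5 was -0.046, 0.12 and 0.023, and nspb-2 minus nspb-3 was -0.061, -0.039 and 0.265. Of 7 tested genes among and beside them, dnj-11 was higher at 1.42, lec-11 was lower at -0.46 and 5 did not pass. The gene nspb-2 overlaps the RefSeq span of irld-7, whose probe stood at 0.15 ± 0.29.

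**Figure D4:**
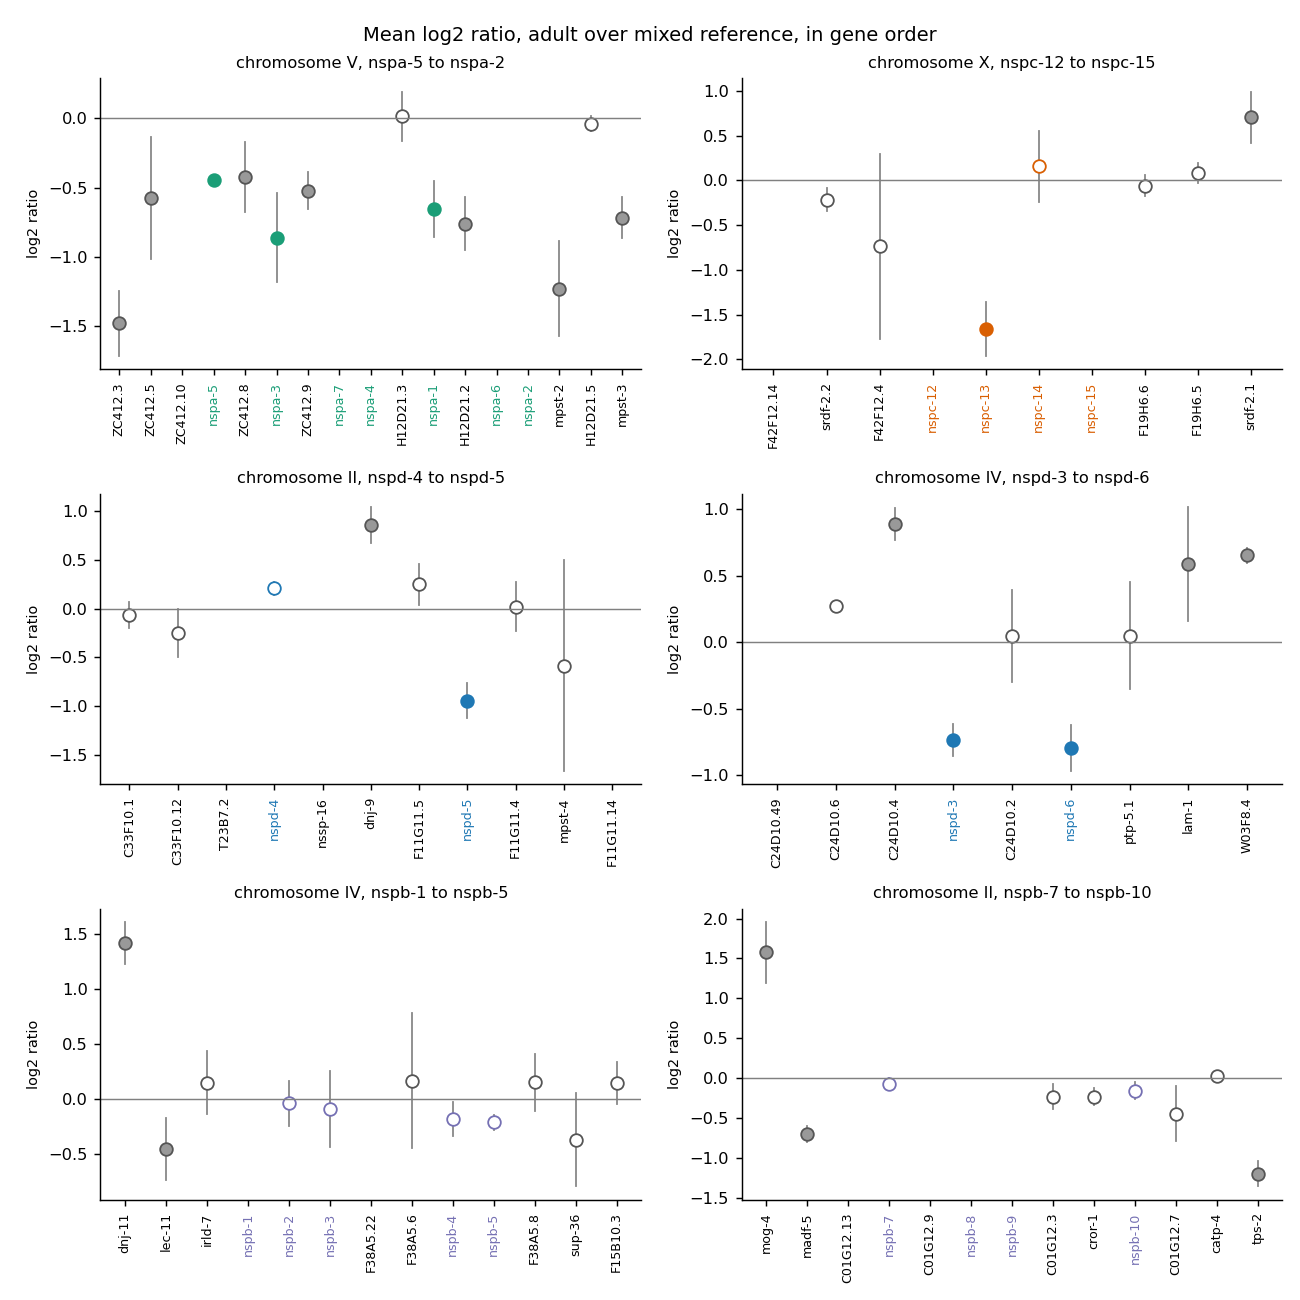
Mean log2 ratio of adult over mixed reference (vertical axis, bars are the SD over 3 arrays) of genes in RefSeq order (horizontal axis) in 6 stretches with at least 2 measured members. Members have coloured names and points, filled points passed the test, and genes without a point were not tested; nspa members and 7 of 9 other genes are lower in the first panel, while nspd-3 and nspd-6 lie below all 6 of the other tested genes in theirs.

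The place of a probe in the table moved with its value on replicate 1. Over 32 equal runs of consecutive rows, the run medians of the centred log2 ratios went from -0.48 to 0.52 on replicate 1, against -0.17 to 0.18 on replicate 2 and -0.17 to 0.17 on replicate 3. The probes of nspc-9, nspc-13 and nspa-3 lay in the run at -0.48 on replicate 1. Those of nspc-20, nspc-14, nspa-5 and nspa-8 lay in a run at -0.27 on that array. The probes of nspd-4 and nspd-5 lay in a run at 0.35 on replicate 1, and those of nspb-3 and nspb-12 in a run at 0.31. On replicates 2 and 3, the runs of all nspb probes had medians above 0. So did those of the nspd probes other than nspd-2 and nspd-7. Place in the table and family were thus not independent. Centred by runs, nspa-3 stood at -0.59 (adjusted p = 0.00665, limma) and nspa-8 at -0.93 (adjusted p = 0.00132, limma), both nearer to 0 than before. In the same setting, nspc-9 stood at -1.84 (adjusted p = 8.48e-05, limma), nspc-13 at -1.39 (adjusted p = 0.000106, limma) and nspc-20 at -2.76 (adjusted p = 0.000155, limma). All nspb and nspd means but those of nspb-7 and nspd-7 moved down. The gene nspd-5 stood at -1.15 (adjusted p = 0.000354, limma), below nspa-8. The genes nspb-3, nspb-4 and nspb-5 stood at -0.27, -0.30 and -0.29 and did not pass (adjusted p = 0.124, 0.068 and 0.0679, limma). The probes of nspc-20 and nspc-14 shared a run, and so did those of nspd-4 and nspd-5, so centring by runs leaves the differences within these pairs as they are by construction.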

How the data were processed

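The deposited values are log2 ratios of 20000 probes on 3 two-colour arrays. That the scale is log2 was read from the values: all 58013 within 2 of 0 are the log2 of a ratio with 3 decimals (100%, tolerance 0.005 thousandths), against 0.974% read as natural logs. Direction, dyes, background treatment and any centring are not stated in the labels or files. Gene names came from GEO's annotation of the platform: 15655 had 1 symbol, 198 several and 4147 none, and 15569 matched the WBcel235 RefSeq gene table. No member had over 1 probe. Each array was centred on its median, genes with several probes took their average, and the mean ratio of each of 15092 genes was tested against 0 with limma 3.58.1 in R 4.3.3 (lmFit, eBayes; 2 residual and 5.30 prior degrees of freedom), with Benjamini-Hochberg adjustment over all genes and a threshold of 0.05. Variation of the reference itself is not in this test. Families and lists were described by counts and medians only. Members, lists and alternatives were chosen with earlier results of these data known. Every measured member could be named, with values per array for all nspa and nspc genes and for the 2 highest and 2 lowest nspb and nspd genes, and of each comparison list its highest and lowest member. Alternatives were no centring, scale and quantile normalization, centring by 32 runs of rows, genes on at least 2 arrays, single probes, a robust prior, array weights, treat against 1.5-fold, and leaving out each replicate.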

Additional observations from a re-analysis of the deposited data

How the results depend on the processing

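Of 12 alternatives, 7 left the calls of all 26 members as reported (no centring, scale and quantile normalization, genes on at least 2 arrays, single probes, a robust prior and array weights), as did leaving out replicate 1. Leaving out replicate 2 or replicate 3 ended the call of nspa-5 alone, and centring by 32 runs ended that call and added nspd-1. Treat against 1.5-fold, which asks for a larger effect, called 2076 genes in all, 1 nspa gene and 0 nspd genes, and kept 3 nspc genes. No called member changed sign in any alternative. The nspd median of -0.54 moved to -0.64 with centring by 32 runs, to -0.45 with array weights (replicate 1 has a weight of 0.37), and ranged from -0.63 to -0.43 with 1 replicate left out. The nspb median of -0.07 moved to -0.15 with centring by 32 runs. The cause of these shifts was not tested. Members near 0 that had not passed changed sign: nspd-9 to 0.021 without centring and nspb-12 to -0.0024 with array weights. With 1 replicate left out, nspb-12 ranged from -0.0112 to 0.41, nspc-14 from -0.063 to 0.32, nspb-2 from -0.16 to 0.027, nspd-2 from -0.15 to 0.0101, nspb-3 from -0.27 to 0.077, nspb-6 from -0.0365 to 0.22 and nspd-9 from -0.083 to 0.10. No paired analysis was possible because the design holds a single group. Signal over background is not known here.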
